A study of Mus musculus with 4 samples.

Results

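The genes described here encode secreted or cell surface proteins, or proteins of the secretory pathway, and several were almost silent in control nerves and abundant in Zeb2 cKO nerves. The 8 genes are Csn3, Zpld1, Agr3, Expi, Prss35 and Smoc1, with the paralogs Agr2 and Smoc2 for contrast. They are 8 of the 22096 gene symbols in the tables, and of 21965 genes with a usable value in both libraries. The genes were picked by name because of their difference between the 2 libraries compared here, so the size of that difference is a description and carries no test. The label of the group, switched on from near zero, holds in part. Csn3, Zpld1, Agr3 and Expi were under 1 FPKM (a level scaled to transcript length and library size) in the control library and above 10 FPKM in the Zeb2 cKO library. Prss35 and Smoc1 were above 1 FPKM in the control library, Agr2 stayed near 0 in both libraries, and Smoc2 was abundant in both.

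The study profiled RNA of pooled sciatic nerves from mice at postnatal day 7 on a mixed strain background, and its groups are Control and Zeb2 cKO, a conditional knockout of the transcription factor Zeb2. The labels give neither the Cre line nor the deleted exons, so the cells that lost the gene are not named. Each group has 2 labelled samples, and the data analysed here hold 1 set of values for each group, called its library. The labels name it under both samples, so whether it stands for 1 sample or for both is not known. It held an estimated 29418759 reads in control and 20276069 in Zeb2 cKO. No value comes with separate replicates, no test between the conditions was possible, and the intervals given are 95% counting intervals that cover counting error only. In bulk nerve, more cells that express a gene and more RNA per cell cannot be told apart.

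The genes belong to families that are usually described outside the nerve. Csn3 encodes kappa-casein, which keeps casein micelles of milk in solution, and Expi, whose current RefSeq symbol is Wfdc18, encodes a small secreted protein with a whey acidic protein domain. Agr2 and Agr3 are anterior gradient proteins of the protein disulphide isomerase family, which help secreted proteins fold in the endoplasmic reticulum and are best known from mucus-secreting and ciliated epithelia. Zpld1 encodes a membrane-anchored protein with a zona pellucida domain, the module with which egg coat and inner ear matrix proteins assemble. Prss35 encodes a secreted member of the serine protease family. Smoc1 and Smoc2 are calcium-binding matricellular proteins related to SPARC, and Smoc1 is known to restrain BMP signalling. Zeb2 encodes a repressor and activator that binds E-box-like CACCT sequences. In the nerve it is known as a regulator that Schwann cells need to myelinate.

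The sequences just upstream of Agr3 and Agr2 are shown because the paralogs lie side by side on chromosome 12 and differed in the data, and that of Expi because it was the one of 5 matched genes that held a TATAAA motif. RefSeq promoters of build GRCm38.p6 matched 5 of the 8 genes (Zpld1, Agr3, Agr2, Expi and Prss35). Each run is the 250 bases before the annotated start, 5′ to 3′ on the strand of the gene, with CACCT on either strand (AGGTG when read on the other) and TATAAA in capitals. Agr3 is chr12:35925371-35925620 on the + strand, Agr2 is chr12:35992675-35992924 on the + strand, and Expi is chr11:83708754-83709003 on the + strand.
Agr3: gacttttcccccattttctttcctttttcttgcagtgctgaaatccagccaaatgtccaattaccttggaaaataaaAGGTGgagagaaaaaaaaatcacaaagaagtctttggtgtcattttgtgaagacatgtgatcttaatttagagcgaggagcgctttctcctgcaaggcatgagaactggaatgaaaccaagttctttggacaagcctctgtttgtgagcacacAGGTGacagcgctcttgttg
Agr2: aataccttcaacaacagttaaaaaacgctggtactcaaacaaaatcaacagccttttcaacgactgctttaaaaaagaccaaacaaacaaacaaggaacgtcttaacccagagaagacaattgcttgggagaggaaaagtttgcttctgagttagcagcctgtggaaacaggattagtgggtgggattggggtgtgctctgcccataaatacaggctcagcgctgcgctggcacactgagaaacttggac
Expi: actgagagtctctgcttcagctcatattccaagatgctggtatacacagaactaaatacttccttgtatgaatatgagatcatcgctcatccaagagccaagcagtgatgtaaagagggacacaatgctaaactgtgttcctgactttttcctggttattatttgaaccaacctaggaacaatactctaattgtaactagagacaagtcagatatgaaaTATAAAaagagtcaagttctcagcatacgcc
Agr3 held 2 CACCT matches, both on the other strand, which began 173 and 20 bases before the start. The nearer one belonged to a CACCTG match that began 21 bases before it. The Agr2, Expi, Zpld1 and Prss35 windows held 0 CACCT matches. Of 32851 RefSeq windows of the same length, 46.0% held CACCT and 17.2% held CACCTG, so the motif is common. TATAAA, which 12.4% of the windows held, began 31 bases before the start of Expi and was found in 1 of these 5 genes. The STAT-type motif TTCNNNGAA and the forkhead-type motif TGTTTAC were found in 0 of the 5, against 7.02% and 3.17% of all windows, also searched on both strands. The GC content was 38.4% in Expi, 40.4% in Zpld1, 41.6% in Agr3, 44.4% in Agr2 and 50.8% in Prss35, all below the median of 52.4% over the windows. A match is a description of these letters only.

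The targeted gene went in the direction of the labels. Zeb2 (chromosome 2, 44839154 to 44968799, mm9, the build of the tables) was at 34.4 FPKM in control and 19.5 FPKM in Zeb2 cKO, 0.568 of the control level (interval 0.548 to 0.588). Of 12903 genes with a mean of at least 1 FPKM, here called measured, 8.59% reached 2-fold on the higher side in Zeb2 cKO and 6.25% on the lower side, on the log2(FPKM + 1) scale. Their median log2 ratio was 0.18, and dividing the Zeb2 cKO values by the median ratio moved all log2 ratios by up to -0.21. On that rescaled scale the split of 1109 higher and 806 lower genes became 782 and 960. Against this background, 6 of the 8 genes were 2-fold or more higher and 0 were lower. Since the genes were chosen for this difference, and Csn3, Zpld1, Agr3 and Expi entered the measured set only through the Zeb2 cKO library, nothing is read from that count. Agr2 was the 1 gene of the 8 under the filter.

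Csn3 (chromosome 5, 88354658 to 88361289) was at 0.164 FPKM in control, about 9 reads (0.0771 to 0.32 FPKM), and at 107 FPKM in Zeb2 cKO, about 3869 reads (104 to 111 FPKM). The milk protein transcript was thus 653-fold higher (335 to 1390), and ranked 557 of 21965 genes by level in the Zeb2 cKO library against 14810 in control. Its log2 ratio of 6.54 on the log2(FPKM + 1) scale was the 15th highest of all measured genes.

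Expi (chromosome 11, 83522506 to 83524862) encodes a second protein first described in mammary tissue. It was at 0.244 FPKM in control, about 3 reads (0.0478 to 0.678 FPKM), and at 42.6 FPKM in Zeb2 cKO, about 370 reads (38.3 to 47.1 FPKM). The ratio was 174 with an interval of 62.3 to 894, which is wide because so few control reads stand behind it. With 544 bases Expi is the shortest transcript of the 8, and 1 read weighs more there than in the longer genes.

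Zpld1 (chromosome 16, 55225288 to 55283350) had the largest plain ratio of the 8. It was at 0.0698 FPKM in control, about 6 reads (0.0241 to 0.143 FPKM), and at 68.1 FPKM in Zeb2 cKO, about 4294 reads (66.1 to 70.2 FPKM). The level was 976-fold higher (477 to 2830), an interval that overlaps those of Csn3, Agr3 and Expi, so counting error alone leaves the order of these ratios unsettled.

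The AGR paralogs stood apart from each other. Agr3 (chromosome 12, 36652208 to 36676317) was at 0.0411 FPKM in control, about 1 read (0.0011 to 0.242 FPKM), and at 37.4 FPKM in Zeb2 cKO, about 583 reads (34.4 to 40.6 FPKM), a ratio of 909 with an interval of 154 to 34000. Agr2 (36719512 to 36730668), which begins 43.2 kb beyond the end of Agr3, was at 0.241 FPKM in control, about 5 reads (0.0766 to 0.551 FPKM), and at 0.296 FPKM in Zeb2 cKO, about 4 reads (0.0754 to 0.709 FPKM). The ratio for Agr2 was 1.23 with an interval of 0.233 to 5.45. At this depth a difference within that interval was not detectable for Agr2, while the Zeb2 cKO intervals of the paralogs lay far apart.

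Prss35 (chromosome 9, 86636434 to 86650678) was the most abundant of the 8 in Zeb2 cKO and was not silent in control. It was at 3.84 FPKM in control, about 342 reads (3.44 to 4.26 FPKM), and at 185 FPKM in Zeb2 cKO, about 11359 reads (182 to 188 FPKM), where it ranked 315 of 21965 genes. With more control reads its ratio of 48.2 had a narrow interval (43.3 to 53.8). The interval lies below those of Csn3, Zpld1, Agr3 and Expi.

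The SMOC paralogs also differed. Smoc1 (chromosome 12, 82127795 to 82287401) was at 1.18 FPKM in control, about 144 reads (0.992 to 1.38 FPKM), and at 81.2 FPKM in Zeb2 cKO, about 6853 reads (79.3 to 83.1 FPKM), 68.8-fold higher (58.5 to 82.0). Smoc2 (chromosome 17, 14416513 to 14541797) was at 131 FPKM in control, about 13160 reads (129 to 134 FPKM), and at 163 FPKM in Zeb2 cKO, about 11211 reads (160 to 166 FPKM). Its ratio of 1.24 (1.21 to 1.27) corresponds to a log2 ratio of 0.30, and to 0.09 after rescaling to the median gene. In control the Smoc2 level was thus far above that of Smoc1, and in Zeb2 cKO both were within the same order of magnitude.

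**Figure D1:**
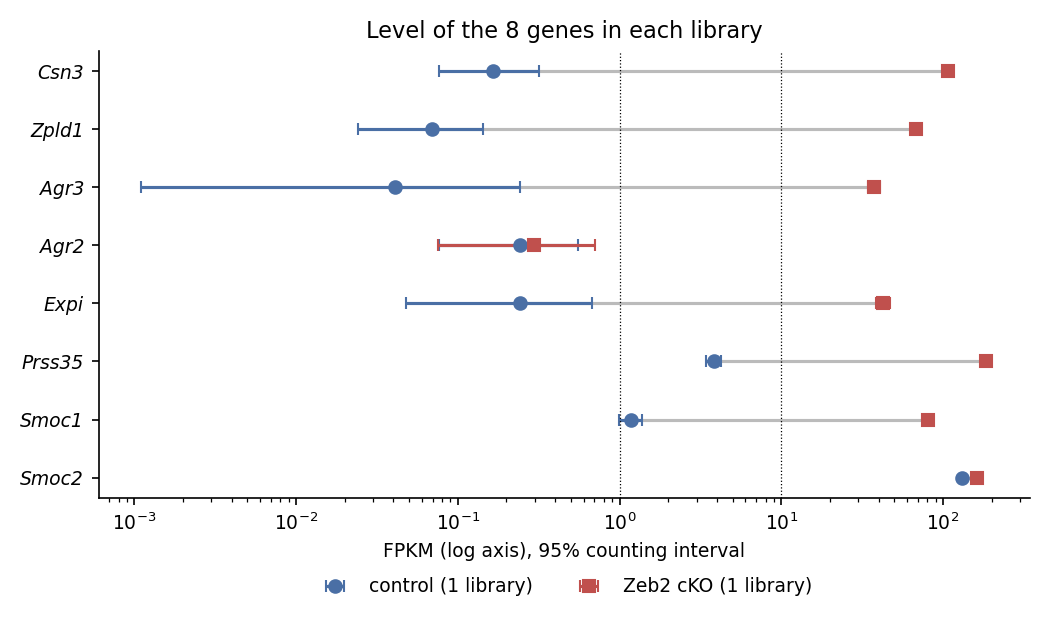
FPKM (log axis) of each of the 8 genes in the control library (circles) and the Zeb2 cKO library (squares), with 95% counting intervals and dotted lines at 1 and 10 FPKM. Csn3, Zpld1, Agr3 and Expi cross both lines, and the symbols of Agr2 and of Smoc2 lie close together. Prss35 and Smoc1 start above 1 FPKM, with the control interval of Smoc1 reaching that line.

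By level in Zeb2 cKO the order was Prss35 (185 FPKM), Smoc2 (163), Csn3 (107), Smoc1 (81.2), Zpld1 (68.1), Expi (42.6), Agr3 (37.4) and Agr2 (0.296). Neighbours in that order had counting intervals that did not overlap, except Expi (38.3 to 47.1 FPKM) and Agr3 (34.4 to 40.6 FPKM). By level in control Smoc2 (131 FPKM), Prss35 (3.84) and Smoc1 (1.18) came first, and from Expi through Agr2, Csn3 and Zpld1 to Agr3 the intervals of neighbours in the order overlapped.

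Smoc1 was listed with 2 transcripts, which the tables give 33 bases apart in length. NM_022316, the shorter one, was at 1.18 FPKM in control and 70.5 FPKM in Zeb2 cKO. NM_001146217, the longer one, was at 0.000352 FPKM in control, which is far less than 1 read, and at 10.6 FPKM in Zeb2 cKO, 13.1% of the Smoc1 level there. The share assigned to the longer form was 0.0298% in control. Cufflinks divides reads between these near-identical forms by estimate, and the control share rests on about 144 reads in all, so the split is uncertain. In the GENCODE transcripts matched to these accessions the difference inside the gene is an earlier start of exon 6 of 13, at chr12:81150619-81150651 (GRCm38, + strand). It is printed here because it is what tells the forms apart, with the 33 added bases in capitals and 15 bases of shared sequence on either side. They are coding and add 11 codons in frame.
NM_001146217: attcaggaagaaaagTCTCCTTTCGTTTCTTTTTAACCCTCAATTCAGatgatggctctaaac
NM_022316: attcaggaagaaaagatgatggctctaaac
The microRNA row Mir3067 (chromosome 12, 82267138 to 82267221) lies inside the Smoc1 locus. It was listed at 0 in control and at 60.6 FPKM in Zeb2 cKO. It is a row of 84 bases, and reads of the host transcript and of the microRNA cannot be told apart in these tables. The row 4930474M22Rik lies inside the Smoc2 locus, at 2.15 and 3.59 FPKM.

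**Figure D2:**
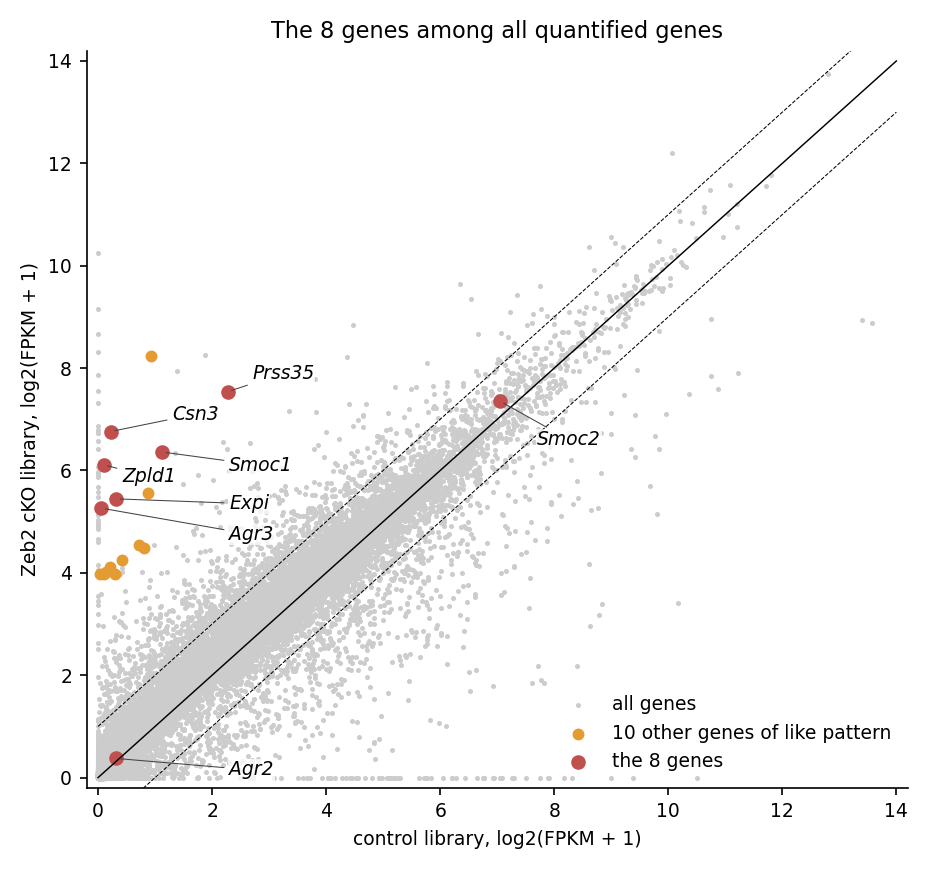
Each of the 21965 genes by log2(FPKM + 1) in control (x axis) and Zeb2 cKO (y axis), with the line of equal level and dashed lines at 2-fold. The 8 genes are in red. In orange are the 10 highest log2 ratios among the 22 other genes from under 1 to at least 10 FPKM, without small RNA rows and segments. Agr2 and Smoc2 sit by the diagonal, and the other 6 lie in the upper left, above the 2-fold line.

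The pattern of Csn3, Zpld1, Agr3 and Expi was uncommon in either direction. Of 21965 genes, 0.273% went from under 1 FPKM in control to at least 10 FPKM in Zeb2 cKO, and 0.36% went from at least 10 to under 1 FPKM. These are 60 and 79 genes, of which 34 and 60 are microRNA or other small RNA rows or immune receptor segments by their symbols, whose short rows reach high FPKM with few reads. Without them 26 and 19 genes were left, so that these 4 genes stood beside 22 others. The 22 still include the short row Gm12238 (124 bases), which was listed at 0 in control and at 10.7 FPKM in Zeb2 cKO on about 1 read (0.248 to 54.6 FPKM).

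Among these 22, the 10 genes with the highest log2 ratios were led by Gfap, an intermediate filament of astrocytes and nonmyelinating Schwann cells, at 0.914 and 300.0 FPKM. Hey2, a repressor downstream of Notch, was at 0.829 and 46.4 FPKM, and both are also among the immature Schwann cell markers used here. The next were Cntnap5a, a neurexin-related adhesion protein (0.0262 and 14.7 FPKM, about 4 control reads), and Clca2, named as a chloride channel accessory protein (0.162 and 16.3 FPKM). Col25a1, a membrane-anchored collagen, was at 0.0947 and 15.2 FPKM, and BC006965, a long noncoding RNA by RefSeq, at 0.0771 and 14.8 FPKM. Tecta, alpha-tectorin, is a secreted zona pellucida domain protein like Zpld1, and was at 0.648 and 22.4 FPKM. Cpxm2, a secreted carboxypeptidase family member, was at 0.345 and 18.1 FPKM. Grik3, a kainate receptor subunit, was at 0.746 and 21.5 FPKM, and Krt23, a keratin that is also among the perineurial markers used here, at 0.222 and 14.7 FPKM. The Zeb2 cKO levels of Csn3, Zpld1, Expi and Agr3 lay above those of these genes other than Gfap and Hey2.

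The 3 nearest genes on either side of each member, 42 different genes without the members themselves, included 20 that were under 1 FPKM in both libraries. Of 21 measured neighbours, 5 were 2-fold or more higher (23.8%, against 8.59% of all measured genes) and 2 were lower (9.52%, against 6.25%), with a median log2 ratio of 0.44 beside 0.18 for all measured genes. The 5 higher ones lay 2.73 kb (Gm11428), 46.5 kb (Me1), 374 kb (Mllt4), 433 kb (Ahr) and 2770 kb (Alcam) from the nearest member. These counts are small, and the neighbours share chromosomes and in part loci.

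Around Csn3 the casein cluster was silent. Odam, 32.9 kb away on the side of lower coordinates, was listed at 0 in both libraries, and the highest value among the 6 neighbours was 0.419 FPKM, of the salivary protein gene Smr3a in Zeb2 cKO. The other casein genes of the cluster, Csn2, Csn1s2a and Csn1s2b, were listed at 0 in both libraries, and Csn1s1 at 0.0221 FPKM in control and 0 in Zeb2 cKO. Kappa-casein was therefore the 1 casein of 5 that was above 1 FPKM in either library.

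Expi lies between other genes with whey acidic protein domains. Gm11428, which RefSeq names Wfdc17, ends 2.73 kb before Expi and was at 1.93 FPKM in control and 7.23 FPKM in Zeb2 cKO, 3.74-fold higher. The row 1100001G20Rik, which RefSeq names Wfdc21, begins 35.6 kb after Expi and was at 0.739 FPKM in control and 0.365 FPKM in Zeb2 cKO. The chemokine genes Ccl3 and Ccl4, on the other side, were under 1 FPKM in both libraries.

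Around the AGR genes, Tspan13, a tetraspanin 10.5 kb after Agr2, was at 40.7 and 33.5 FPKM, a log2 ratio of -0.27. Ahr, the aryl hydrocarbon receptor 433 kb before Agr3, was higher, at 6.68 and 17.1 FPKM (log2 ratio 1.23, and 1.03 after rescaling). Bzw2, 87.8 kb after Agr2, was lower, at 126 and 53.4 FPKM. Agr2 was thus near 0 in both libraries with Agr3 on one side and the expressed Tspan13 on the other.

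Zpld1 stands alone in a wide interval. Its nearest gene with higher coordinates, Nfkbiz, begins 528 kb away and had a log2 ratio of 0.86 (1.93 and 4.30 FPKM). Its nearest gene with lower coordinates, Alcam, a cell adhesion molecule 2770 kb away, was at 5.72 and 29.0 FPKM, and 5330426P16Rik, 4490 kb away, was lower at 13.1 and 2.86 FPKM.

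Beside Prss35, Me1, the malic enzyme that supplies NADPH for lipid synthesis, lies 46.5 kb before the gene and was at 19.1 FPKM in control and 67.4 FPKM in Zeb2 cKO. Snap91, 8.56 kb after it, was at 0.328 and 0.350 FPKM. Beside Smoc1, the sodium-calcium exchanger gene Slc8a3, 11.5 kb after it, was at 1.42 and 0.597 FPKM, and Slc10a1, 58.7 kb before it, at 0.205 and 0.314 FPKM. Among the neighbours of Smoc2, Mllt4, 374 kb before it, had a log2 ratio of 1.03, which became 0.83 after rescaling.

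**Figure D3:**
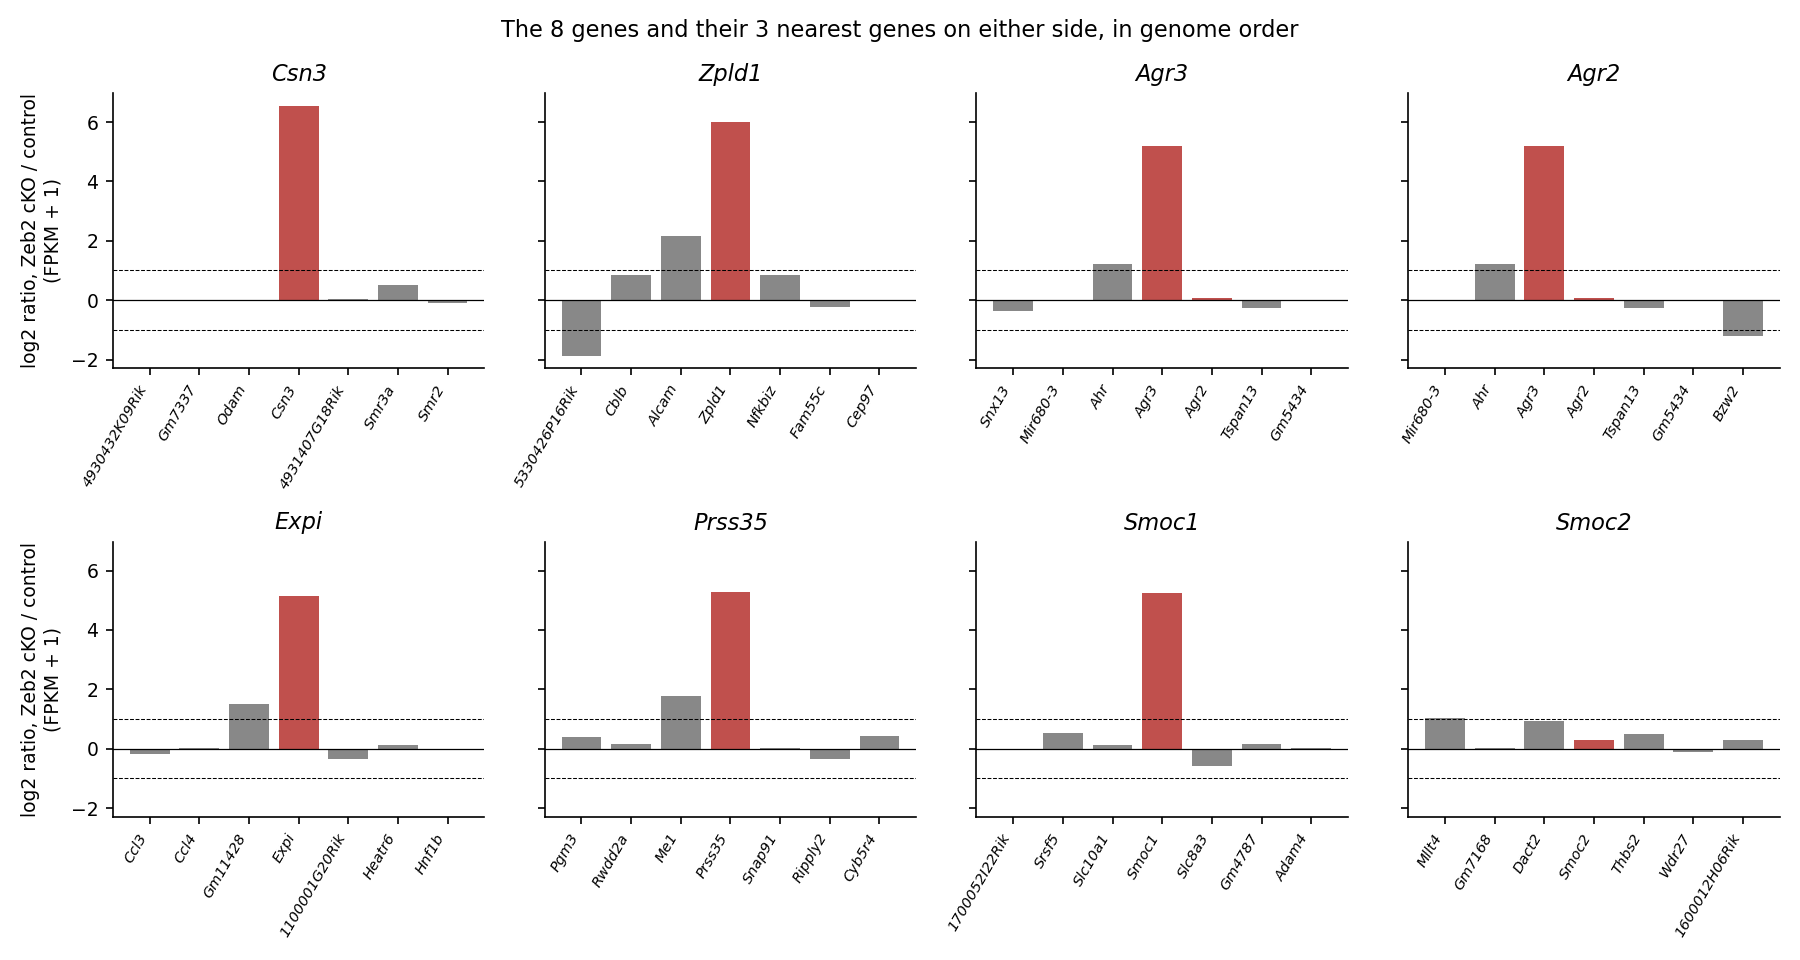
Log2 ratio of Zeb2 cKO over control (FPKM + 1) for each of the 8 genes (red) and its 3 nearest genes on either side (grey), in genome order, without rows inside a locus and with dashed lines at 2-fold. The red bars of 6 genes exceed 5, and the grey bars lie between -1.87 and 2.16.

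Relatives and regulators of the genes are given list by list. In the list of milk proteins and of the casein locus, 13 of 14 genes were in the tables and 9 of these were under 1 FPKM in both libraries, among them Lalba, alpha-lactalbumin, at 0.0545 and 0.412 FPKM, and Wap, the whey acidic protein, listed at 0 in both. Only 2 genes besides the members were measured. Neither reached 2-fold on the log2(FPKM + 1) scale, where 8.59% of all measured genes were higher and 6.25% lower. Mfge8, a milk fat globule protein that many other tissues express, was at 51.2 and 73.5 FPKM. Xdh, xanthine dehydrogenase, was at 0.734 and 1.61 FPKM, a plain ratio of 2.2 and a log2 ratio of 0.59.

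In the whey acidic protein domain family, 19 of 22 genes were under 1 FPKM in both libraries. Besides Expi and Wfdc17, the measured member was Wfdc1, at 28.5 FPKM in control and 38.4 FPKM in Zeb2 cKO (log2 ratio 0.42, and 0.21 after rescaling). Slpi, a secreted leukocyte protease inhibitor, was at 0.247 and 0.126 FPKM.

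In the zona pellucida domain family, 10 of 14 genes were under 1 FPKM in both libraries, including the egg coat genes Zp1, Zp2 and Zp3. Of 3 measured genes besides Zpld1, Tecta was 34.6-fold higher (29.6 to 40.6), beside 8.59% of all measured genes at 2-fold or more higher. The TGF-beta coreceptors Eng and Tgfbr3 had log2 ratios of 0.35 and -0.21.

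The list of protein disulphide isomerases, the relatives of Agr2 and Agr3, also holds Ero1l and Ero1lb, which are not of that family. Agr2, Pdia2, Pdilt and Erp27, 4 of its 22 genes, were under 1 FPKM in both libraries, and the others were measured. Of 17 measured genes besides Agr3, 1, Tmx4, was 2-fold or more higher (7.36 and 17.0 FPKM, log2 ratio 1.11), and not after rescaling (0.91), and 0 were lower. The median log2 ratio of the 17 was 0.45 beside 0.18 for all measured genes, of which 8.59% were higher and 6.25% lower. Pdia4 and Pdia3, chaperones of the endoplasmic reticulum, had log2 ratios of 0.97 and 0.79, and Txndc12, a further thioredoxin-like relative of the AGR proteins, was at 42.3 and 49.7 FPKM. Transcription factors known to drive AGR genes in epithelia were low. Foxa1 was at 0.152 and 0.169 FPKM and Spdef at 0.161 and 0.102 FPKM, while Foxa2 and Foxa3 were listed at 0 in control and were at 0.023 and 0.025 FPKM in Zeb2 cKO. Only 2 of this list of 9 were measured, Xbp1, a regulator of the secretory pathway, and Hif1a. Their log2 ratios were 0.43 and -0.22, and neither reached 2-fold. The other 7 were under 1 FPKM in both libraries and could not be called. They include Gata3, at 0.161 and 0.595 FPKM.

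Of serine proteases, members of the serpin family and other protease inhibitors besides Prss35, 12 were measured, of which 3 were 2-fold or more higher and 2 lower. Prss23, a relative of Prss35, was at 27.5 and 45.2 FPKM (log2 ratio 0.70). Prss12, neurotrypsin, was lower, from 60.5 to 4.94 FPKM (12.2-fold), and so was Spint1, a membrane-bound protease inhibitor, from 4.52 to 0.216 FPKM. Serpina3n, a secreted inhibitor of serine proteases, was higher, from 0.855 to 8.97 FPKM. Htra3 and the complement inhibitor Serping1 had log2 ratios of 1.13 and 1.19, which became 0.93 and 0.98 after rescaling. The median log2 ratio of the 12 was 0.79, beside 0.18 for all measured genes, of which 8.59% were higher and 6.25% lower.

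Of the SPARC family besides Smoc1 and Smoc2, 6 genes were measured. Sparc itself was among the most abundant transcripts, at 3370 FPKM in control and 3030 FPKM in Zeb2 cKO, a log2 ratio of -0.15. Fstl1, a follistatin-like secreted protein, was higher, at 233 and 514 FPKM (log2 ratio 1.14, and 0.93 after rescaling), and Spock1, a proteoglycan with a SPARC-type domain, was lower, at 2.52 and 0.222 FPKM. Spock3 had a log2 ratio of -0.55. The median of the 6 was 0.08, beside 0.18 for all measured genes, of which 8.59% were higher and 6.25% lower.

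Secreted BMP antagonists, the functional relatives of Smoc1, were measured for 12 of 15 genes. Of these, 4 were 2-fold or more higher, also after rescaling, and 0 were lower. Sostdc1 was at 68.2 and 212 FPKM, Bmper at 1.13 and 8.22 FPKM, Chrdl1 at 4.06 and 13.6 FPKM, and Nbl1 at 43.2 and 103 FPKM. Noggin (Nog) and Twsg1 fell just short of the threshold at log2 ratios of 1.00 when rounded. Fst, follistatin, had a log2 ratio of -0.74. The median of the 12 was 0.97, beside 0.18 for all measured genes, of which 8.59% were higher and 6.25% lower.

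Prolactin and STAT5 signalling, which drives milk protein genes in the mammary gland, was also listed. The hormone gene Prl was listed at 0 in both libraries, the prolactin receptor gene Prlr was at 0.664 and 1.17 FPKM, and Elf5, a transcription factor of milk-secreting cells, was at 0.0286 and 0.0412 FPKM. Of 10 measured genes, 3 were 2-fold or more higher and 0 lower, with a median log2 ratio of 0.58. The shares of all measured genes were 8.59% and 6.25%, and their median was 0.18. The 3 are the cytokine signalling inhibitors Socs2 (5.98 and 27.8 FPKM), Socs3 (2.92 and 8.65 FPKM) and Socs1 (2.92 and 7.14 FPKM, log2 ratio 1.05, and 0.87 after rescaling). Stat5a and Stat5b had log2 ratios of 0.81 and 0.40.

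**Figure D4:**
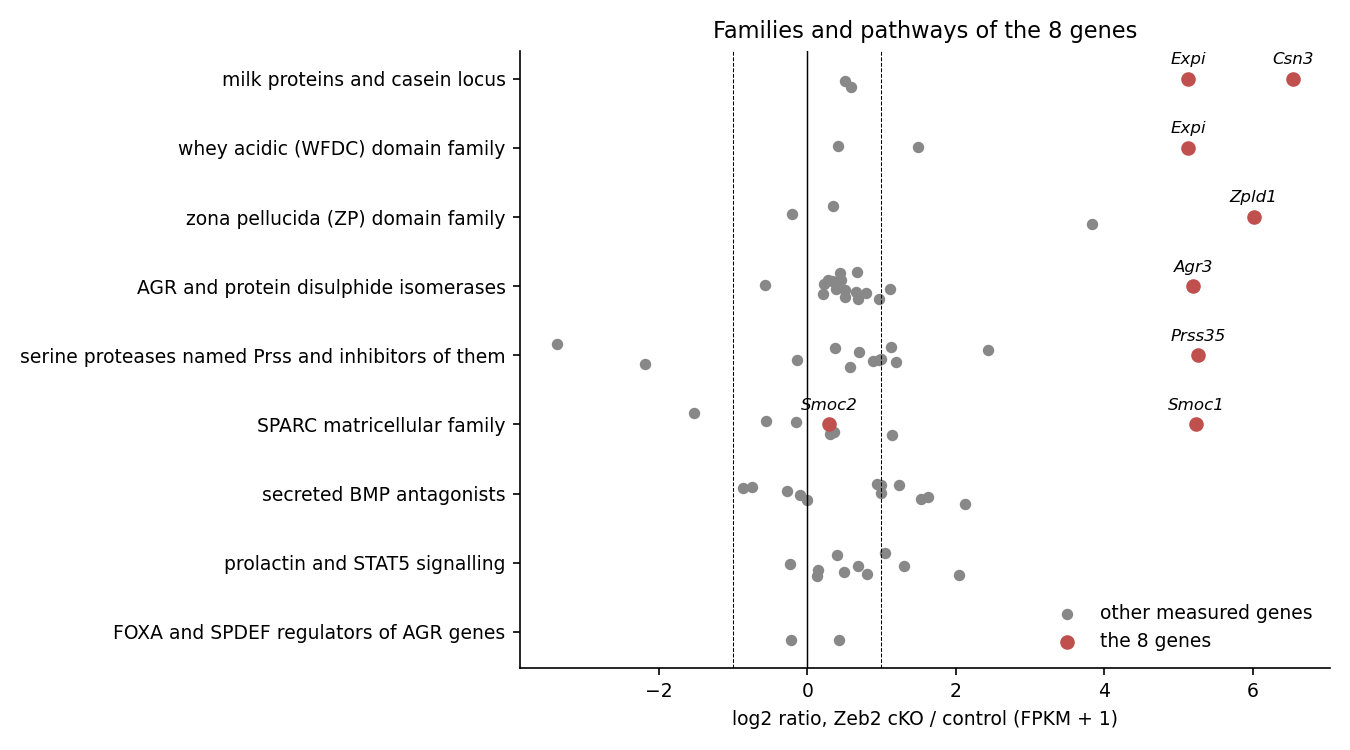
Log2 ratio of Zeb2 cKO over control (FPKM + 1) of each measured gene in 9 lists of relatives and regulators, with the 8 genes in red where measured and dashed lines at 2-fold. Red points other than Smoc2 lie beyond 5, while the highest grey point is Tecta at 3.83 and the lowest is Prss12 at -3.37.

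Markers of cells known to express several of these genes were followed in the same libraries. Of 17 markers of secretory epithelium, 8 were under 1 FPKM in both libraries and 5 were measured. Their summed level was 51.9 FPKM in control and 28.7 FPKM in Zeb2 cKO. Cdh1, E-cadherin, which Schwann cells also express, made up 43.0 and 10.6 FPKM of these sums and was 2-fold or more lower. Without Cdh1 the direction of the sum turned, with 8.88 FPKM in control and 18.1 FPKM in Zeb2 cKO over the other 16 markers, of which 11 had the higher level in Zeb2 cKO. On the log2(FPKM + 1) scale, Krt19 was the 1 measured marker that was 2-fold or more higher (2.06 and 7.5 FPKM). Among all measured genes 8.59% were higher and 6.25% lower. The mucin gene Muc1 was at 0.609 and 2.09 FPKM (log2 ratio 0.94). Under the filter, Ehf was at 0.0120 and 1.89 FPKM, the claudin gene Cldn3 at 0.157 and 1.08 FPKM, Krt7 at 0.624 and 1.16 FPKM and the splicing factor gene Esrp1 at 1.62 and 0.0625 FPKM. Epcam was at 0.0304 and 0.133 FPKM and Grhl2 at 0.0321 and 0.0313 FPKM. Of 10 keratinocyte markers, 7 were under 1 FPKM in both libraries, with Krt5 at 0.0256 and 0.119 FPKM and Krt14 at 0.123 and 0.0826 FPKM. The summed level was 5.90 and 9.69 FPKM, and Krt15, at 0.0977 and 3.56 FPKM, was 2-fold or more higher.

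Other cell types were followed in the same way, beside 8.59% higher and 6.25% lower among all measured genes. The 11 usable myelin markers were all 2-fold or more lower, with summed levels of 28300 and 1340 FPKM, and 6 of 10 markers of immature Schwann cells were higher (summed 191 and 732 FPKM, and without Gfap 190.0 and 433 FPKM). Among the immature Schwann cell markers 1 was lower, the neurotrophin receptor gene Ngfr, at 42.8 and 15.8 FPKM (log2 ratio -1.38). Of 10 perineurial markers 7 were higher (111 and 345 FPKM), and 6 after rescaling. Of 10 fibroblast markers 6 were higher (5700 and 9410 FPKM), and 3 after rescaling. Of 7 measured chondrocyte markers 6 were higher, and 5 after rescaling (summed over 12 markers 51.7 and 418 FPKM), led by the collagens Col9a1 (1.54 and 79.7 FPKM) and Col9a3 (13.0 and 220 FPKM), while the cartilage proteoglycan Acan was at 0.147 and 0.206 FPKM and Matn1 and Matn3 were listed at 0 in Zeb2 cKO. The 15 skeletal muscle markers were all lower (9180 and 1130 FPKM). Among 9 endothelial and 9 macrophage markers 0 reached 2-fold on the log2(FPKM + 1) scale (198 and 295 FPKM, and 132 and 144 FPKM). The part of these cell types in the levels of the 8 genes was not tested.

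**Figure D5:**
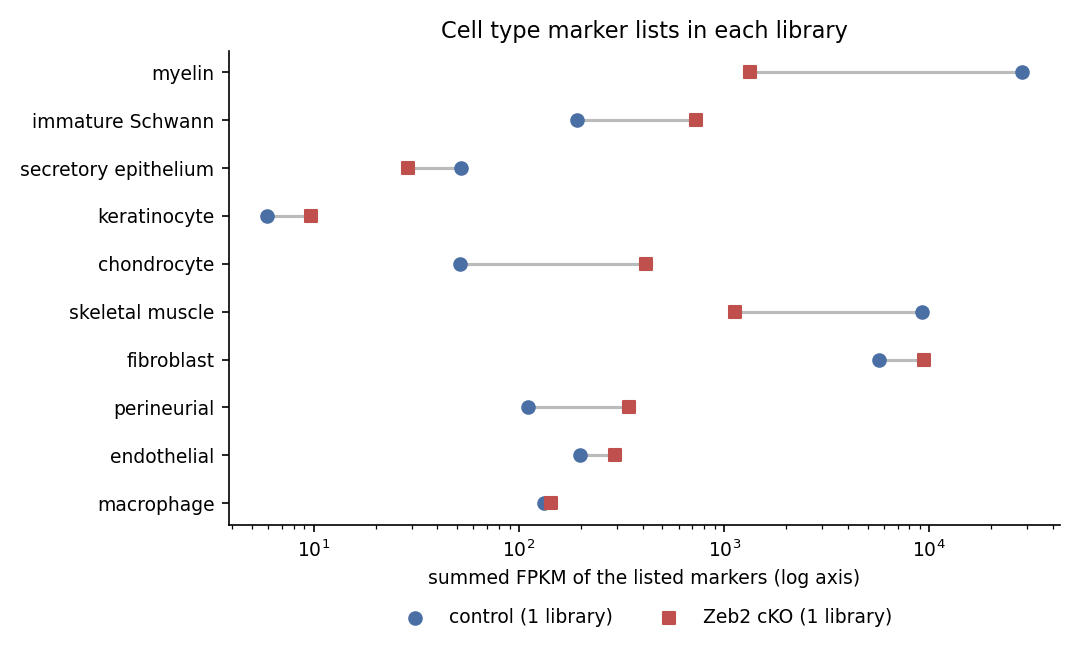
Summed FPKM (log axis) of 10 lists of cell type markers in the control library (circles) and the Zeb2 cKO library (squares). Secretory epithelium and keratinocyte markers stay below 52 FPKM in both libraries, while the myelin and skeletal muscle sums are lower and the immature Schwann, chondrocyte and perineurial sums higher in Zeb2 cKO.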

How the data were processed

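The submitters' processing notes name CASAVA, TopHat, Cufflinks, Cuffdiff and the genome build mm9, without versions or strand. The deposited tables give FPKM for each transcript, already scaled by the authors. They also give a deposited coverage signal, which by its ratio to FPKM in each table is not scaled to depth. Each table is named under both samples of its group in the labels and was assigned to the group. There were 28107 transcript rows, of which 295 whose estimate was not marked OK in both tables were dropped, and FPKM was summed per symbol. Ratios are log2((FPKM Zeb2 cKO + 1)/(FPKM control + 1)), a pseudocount of 1 that understates the change of low genes, and stated folds are FPKM ratios with nothing added. Counts of genes at 2-fold or more use the log2 ratios, so a low gene can pass 2-fold by its plain ratio and not be counted. FPKM tables hold no counts, and no count model was used.

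Reads were estimated as coverage times length, divided by what 1 read contributes in transcripts of similar length (within 20%, or all of at least 2000 bases, where it was 53.0 bases in control and 52.4 in Zeb2 cKO). The control library was 1.47 times as deep. Poisson and Clopper-Pearson intervals (95%) on these reads are approximate. The members and lists were chosen with earlier results of these data known. Named genes were the members, Zeb2, the 3 nearest genes on either side, and the 10 non-members of highest ratio among those from under 1 to at least 10 FPKM. The 3 largest ratios of each list were also named, with every member that a count of 5 or fewer covers. Other listed genes (such as Lalba, Slpi, Prss23 and the low regulators) were named after their values were seen. Of 251 listed symbols, 5 matched through an older symbol or accession in RefSeq and 1 did not match. Code was tested on simulated data (Python 3.11.15, SciPy 1.17.1).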

Additional observations from a re-analysis of the deposited data

How the results depend on the processing

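The count of 6 members at 2-fold or more higher and 0 lower was the same under each of the 9 alternatives tried for it. Of all measured genes, 8.59% were higher and 6.25% lower in the main setting. The log2 ratios of these 6 genes ranged from 3.07 (Agr3, pseudocount 5) to 8.67 (Csn3, pseudocount 0.1). The genes were chosen for this difference and lay far past the threshold, so the count could hardly move and nothing is read from it. The log2 ratio of Smoc2 ranged from 0.09 to 0.31 and that of Agr2 from 0.02 to 0.22. Counts over all genes depended on the settings. With a pseudocount of 5 they were 477 higher and 529 lower, with a mean of at least 5 FPKM 739 higher, and at 4-fold 221 higher and 318 lower. Limits of 0.5 and 20 FPKM gave 36 genes from low to high and 51 from high to low. The split of 57.9% higher among called genes became 44.9% after rescaling to the median gene and 47.4% with a pseudocount of 5. Of 162 counts in the families, 22 moved by over 1.5 times, and the cause was not tested. Control levels of Csn3, Zpld1, Agr3, Agr2 and Expi rest on 9 reads or fewer, which limits their ratios. No paired analysis was possible because each condition has 1 set of values, and leaving out a replicate was not run as none would remain.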

Other observations

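Zpld1 and Tecta, which share a zona pellucida domain, are both known from the acellular gels of the inner ear, so 10 further genes of these gels and of otoconia and hair cell matrices were looked up, a list chosen after the values of Zpld1 and Tecta were seen. Otogl, otogelin-like, a secreted glycoprotein of these gels (chromosome 10, 107199366 to 107349190), was at 0.0313 FPKM in control, about 8 reads, and at 11 FPKM in Zeb2 cKO, about 1875 reads, 352-fold higher (172 to 789). Otogl, like Tecta, is also among the 22 other genes that went from under 1 to at least 10 FPKM. Its difference is therefore a description and carries no test. The remaining genes stayed under 1 FPKM in both libraries. Tectb was at 0.0105 FPKM in control and listed at 0 in Zeb2 cKO, Otog was at 0.0112 and 0.0268 FPKM, Ceacam16 at 0.0378 and 0.180 FPKM, and Coch, cochlin, at 0.194 and 0.193 FPKM. Otol1 and Strc were listed at 0 in both libraries.

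Among the other genes that went from under 1 to at least 10 FPKM, some further ones with secreted products were picked out after their values were seen. C1ql1, a secreted C1q-related protein, was at 0.344 FPKM in control and 16.1 FPKM in Zeb2 cKO, 46.9-fold higher (28.1 to 92.0). Nrtn, the neurotrophic factor neurturin, was at 0.982 and 22.2 FPKM, 22.6-fold higher (15.7 to 34). Mia1, a small secreted protein first described in melanoma and cartilage, was at 0.715 and 15.1 FPKM, 21.2-fold higher (11.1 to 44.8). Igfbpl1, a secreted protein related to IGF-binding proteins, was at 0.670 and 10.1 FPKM, 15.1-fold higher (11.7 to 19.7).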
